A study of Homo sapiens with 8 samples.

Results

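Integrins and the adaptor proteins that tie them to actin were followed as a set of 35 genes, 10 integrin alpha chains, 6 integrin beta chains and 19 focal adhesion adaptors, chosen by name. The choice was made with earlier results of these data known. Each of the 35 was found as 1 row among the 60564 genes used from the deposited count table. RNA sequencing had been done on AB8/13, a conditionally immortalised human podocyte line, with 4 control libraries, whose cells carried an shRNA without a target, and 4 knockdown libraries, whose cells carried shRNA against ATOH8, a basic helix-loop-helix transcription factor. Cells of both groups belonged to this same line, were grown at 33 °C, differentiated over 5 days at 37 °C and received the shRNA by lipid transfection, so a response shared by both shRNAs cannot be seen in the comparison. How many shRNAs against ATOH8 were used, and their sequence, is not stated in the labels. Nothing in the labels says whether the libraries of a group came from separate cultures, and p-values therefore reflect only how far libraries of a group differ, possibly for technical reasons.

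Integrins are pairs of an alpha and a beta chain that span the membrane and bind the extracellular matrix outside the cell. Talin and kindlin bind the tail of the beta chain and switch the pair to its active state, and vinculin, alpha-actinin, filamin, tensin and zyxin then link it to actin filaments. A complex of integrin-linked kinase, PINCH and parvin and the signalling pair of focal adhesion kinase and paxillin assemble at the same place. In podocytes, epithelial cells wrapped around the capillaries of the glomerulus, the laminin receptor made of ITGA3 and ITGB1 is the main anchor to the glomerular basement membrane, and loss of either chain detaches the foot processes.

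ATOH8 itself was lower in each knockdown library than in any control library, at 5.83 ± 0.66 CPM in control libraries and 2.43 ± 0.329 CPM after knockdown (SD, n = 4 each; CPM is counts per 1e6 counts of the library, scaled by TMM). Libraries held 21108695 to 27109043 counts, and no library stood apart from its group in a way that changed the number of members called by more than 1. As a podocyte the line was incomplete at the RNA level: NPHS1 had 0 to 6 counts per library, while WT1 had 108 to 167. The summed level of 13 podocyte markers was 901.8 to 934.8 CPM in control libraries and 727.1 to 772.2 CPM after knockdown, carried mostly by KIRREL1, and of 8 tested 2 rose and 4 fell. That of 10 mesangial and pericyte markers was 601.3 to 622.7 and 684.2 to 720.7 CPM, mostly MCAM, which did not pass the test. Of 7 tested 5 rose and 1 fell. THY1, at only 1.69 ± 0.264 CPM in control libraries, rose 11.134-fold and CSPG4 3.653-fold, while RGS5 fell to 76.2% of control. The 11 parietal and tubule markers summed to 1880.9 to 1934.2 and 2140.0 to 2230.8 CPM, and of 9 tested 4 rose and 2 fell. The 10 leukocyte markers summed to 89.1 to 99.6 and 118.0 to 127.9 CPM, mostly CD68, with 3 of 4 tested higher, TYROBP at 0 counts and PTPRC at 0 to 2. The 10 endothelial markers summed to 11.5 to 12.8 and 17.8 to 20.6 CPM, with 3 of 5 tested higher and EMCN at 0 counts. The part of these shifts in the results below was not tested, and in bulk RNA a change in the make-up of the cells and a change in RNA per cell cannot be told apart. Over all genes tested, 51.1% passed the test in either direction.

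All 35 members had enough counts to test, and knockdown moved the integrin chains in both directions but the adaptors in 1 direction only. By edgeR's quasi-likelihood test with Benjamini-Hochberg adjustment over all genes tested, 19 members rose, 7 fell and 9 did not pass. Of the 16 integrin chains 8 rose, 7 fell and 1 did not pass, whereas of the 19 adaptors 11 rose, 0 fell and 8 did not pass. The share called was 74.3% of members against 51.1% of the 16884 genes tested, of which 25.2% rose and 25.9% fell. Most members are abundant, and abundant genes were called more often. Among 26 members with a mean over 100 CPM the share called was 73.1%, against 69.3% of the 2249 genes above that level, so the frequency of change in the set was near its background. For direction the 18 adaptors above 100 CPM gave 11 that rose and 0 that fell, where the background at that level was 31.4% higher and 37.9% lower. This contrast is limited, since the members were chosen with earlier results of these data known. Among 25 tested adaptors outside the set 11 rose and 4 fell. The changes were mostly small, with a median absolute log2 change of 0.21 over the members and 0.19 over all genes tested, and 2 of the 35 changed at least 2-fold, ITGB6 and ITGA10, against 4.48% of all genes tested. In 24 members (18 higher, 6 lower) the libraries of the groups did not overlap in CPM, as was the case for 45.6% of all genes tested.

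Levels per length compare the RNA of the members with each other, and protein and pairing of chains were not measured. On the scale of CPM per kilobase of annotated exon, ITGB1, the beta chain shared by most matrix receptors, was the most abundant member of the set in control libraries at 411.9 ± 8.48 (SD, n = 4). FLNA, a filamin that crosslinks actin, followed at 201.2 ± 7.06 and ITGA3, the main laminin-binding alpha chain of podocytes, at 154.2 ± 5.82. Below them on this scale stood TLN1 at 84.0 ± 3.11, ACTN1 at 79.1 ± 2.49 and ZYX at 63.0 ± 3.59. VCL (55.8 ± 2.17), ITGB3 (55.2 ± 0.858) and ITGAV (53.9 ± 1.13) came next and lay within their spread of each other. With the longest transcript as length the order changed, ITGA3 (276.0 ± 10.4) standing above FLNA (250.1 ± 8.77) and ACTN1 (179.9 ± 5.67) above TLN1 (95.9 ± 3.56), so the order of these pairs is not settled. At the bottom stood ITGA10 at 0.0441 ± 0.0181 and ITGA7 at 0.206 ± 0.0403, so 2 of the integrin chains with the largest relative rises were nearly silent.

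The make-up of the integrin chains shifted by a few percent of the total. Summed over the 10 alpha chains, the level per length was 267.5 ± 6.73 CPM per kilobase in control and 278.9 ± 4.31 in knockdown libraries, and summed over the 6 beta chains 512.6 ± 7.63 and 486.8 ± 10.5 (SD, n = 4 each). ITGA3 held 57.7% ± 0.801 of the summed alpha level in control and 61.8% ± 1.08 in knockdown libraries. ITGAV went from 20.2% ± 0.74 to 16.8% ± 0.76, ITGA6 from 9.03% ± 0.334 to 7.11% ± 0.122 and ITGA5 from 6.85% ± 0.231 to 8.46% ± 0.0458. Among the beta chains ITGB1 held 80.4% ± 0.457 in control and 76.9% ± 0.797 in knockdown libraries, with ITGB3 going from 10.8% ± 0.297 to 13.4% ± 0.355 and ITGB5 from 6.13% ± 0.218 to 7.54% ± 0.427. These shares rest on the exon length of each gene, and with the longest transcript in its place ITGA3 held 65.9% and ITGB1 83.7% in control libraries. They are given as a description with no test.

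**Figure D1:**
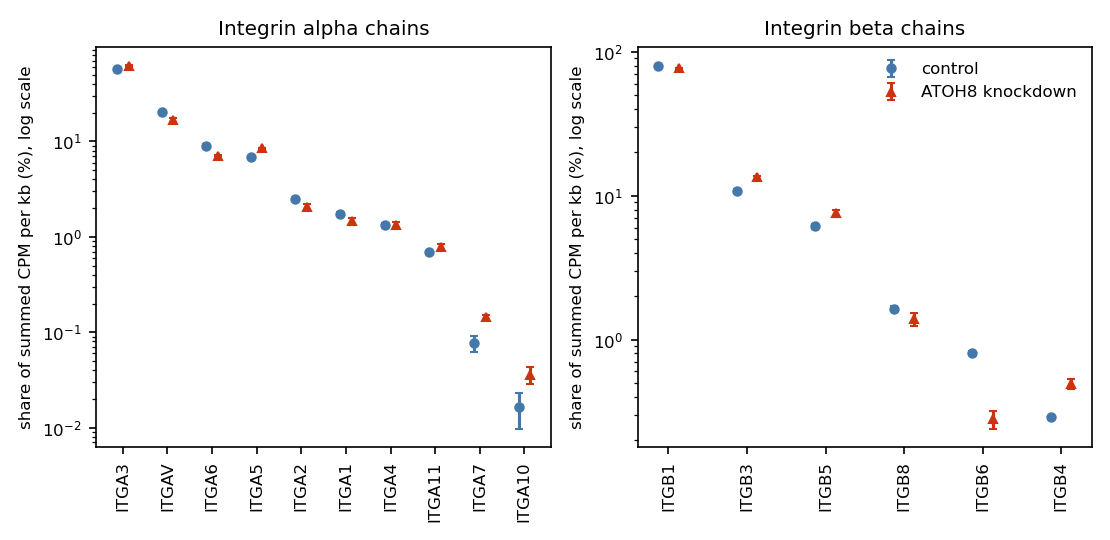
Share of the summed level per length (CPM per kilobase, percent, log axis) held by each integrin alpha chain (left) and beta chain (right), as mean and SD of 4 control (circles) and 4 ATOH8 knockdown (triangles) libraries. ITGA3 and ITGB1 hold the largest shares in both groups, and ITGB6 falls below ITGB4 in knockdown libraries.

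Among the laminin-binding chains the levels of ITGA3 and ITGA6 moved in opposite directions. ITGA3 stood at 1568.6, 1480.4, 1550.6 and 1448.2 CPM in control libraries and 1731.4, 1611.7, 1712.3 and 1703.2 CPM after knockdown. All 4 knockdown libraries lay above the highest control library, and the rise of 0.16 (log2, SE 0.033, edgeR adjusted p = 0.000179) came to 111.8% of the control level. ITGA6, which pairs with ITGB1 or with ITGB4, had 154.6, 156.7, 167.3 and 152.4 CPM in control libraries and 128.7, 127.8, 128.1 and 133.3 CPM after knockdown. The groups were apart, the knockdown libraries being the low ones, with a log2 difference of -0.28 (SE 0.034, edgeR adjusted p = 4.57e-08). ITGA7, the laminin receptor chain of muscle, was low in all libraries, with 27 to 38 counts per control library and 57 to 67 after knockdown, and rose 1.942-fold (log2 0.96, SE 0.178, edgeR adjusted p = 4.5e-05). Its exons overlap those of BLOC1S1 on the other strand, whose total count was 1010.0% of that of ITGA7 and whose own log2 change was -0.08 (edgeR adjusted p = 0.243). They also overlap ENSG00000258311 and METTL7B on that strand, with 63.3% and 35.4% of its count and log2 changes of 0.24 and -1.06. Without the strand setting of the counting, which no label or file header states, reads of such pairs cannot be assigned with certainty.

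The 4 collagen-binding alpha chains split evenly. ITGA1 and ITGA2, the collagen receptors of many epithelial and mesenchymal cells, fell, by 0.20 (log2, SE 0.049, edgeR adjusted p = 0.00201) and 0.21 (SE 0.048, edgeR adjusted p = 0.000622). ITGA1 had 82.5 to 91.8 CPM in control libraries and 69.7 to 82.9 CPM after knockdown, so knockdown replicate 2 reached into the control range. ITGA2 had 49.4 to 55.9 CPM in control libraries and 41.9 to 49.3 CPM after knockdown, which touch but do not overlap. The exons of ITGA1 overlap those of PELO on the same strand, whose total count was 50.4% of that of ITGA1 and whose log2 change was -0.11. ITGA11, a fibrillar collagen receptor of fibroblasts, rose from 19.7 to 20.3 CPM in control libraries to 24.5, 25.1, 23.2 and 22.0 CPM after knockdown (log2 0.24, SE 0.054, edgeR adjusted p = 0.000459). Every knockdown library was above every control library. ITGA10, the chondrocyte collagen receptor, had 10, 9, 6 and 3 counts in control and 15, 12, 14 and 20 counts in knockdown libraries, and its rise (log2 1.16, SE 0.341, edgeR adjusted p = 0.00552) did not pass by DESeq2's Wald test (adjusted p = 0.0513).

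The receptors for fibronectin and vitronectin also moved apart. ITGA5 (ENSG00000161638.11, chromosome 12), the alpha chain of the classical fibronectin receptor, had 143.6, 134.9, 135.5 and 141.1 CPM in control libraries and 181.7, 173.9, 178.4 and 181.3 CPM after knockdown. All knockdown libraries were high, with a log2 difference of 0.37 (SE 0.032, edgeR adjusted p = 1.42e-10). ITGAV, an alpha chain whose partners include ITGB3, ITGB5, ITGB6 and ITGB8, had 443.8, 433.8, 436.9 and 454.7 CPM in control libraries and 376.0, 401.8, 378.1 and 386.1 CPM after knockdown. Here all knockdown libraries were low, with a log2 difference of -0.20 (SE 0.031, edgeR adjusted p = 3.57e-06). ITGA4, which binds fibronectin and VCAM1, was the only integrin chain of the set that did not pass the test (log2 0.08, edgeR adjusted p = 0.265), and its 95% interval ran from -0.04 to 0.19.

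All 6 beta chains changed, 3 up and 3 down, and in none did the groups overlap. Over all genes tested 51.1% were called, and in 45.6% the groups did not overlap. The largest change of the whole set in absolute log2 was the fall of ITGB6, an epithelial chain that with ITGAV binds and activates latent TGF-beta. ITGB6 (ENSG00000115221.12, chromosome 2) had 18.7, 19.6, 20.1 and 19.6 CPM in control libraries and 6.19, 7.7, 6.16 and 5.49 CPM after knockdown. That left 32.8% of the control level (log2 -1.61, SE 0.079, edgeR adjusted p = 4.18e-16). A row without a symbol, ENSG00000285155, overlaps its exons on the same strand, had 11% of its total count and changed alike (log2 -1.55), so it adds no independent evidence. ITGB8, the other partner of ITGAV in the activation of TGF-beta, fell from 130.3, 127.1, 119.6 and 132.1 CPM in control to 103.4, 117.6, 97.8 and 92.1 CPM after knockdown (log2 -0.31, SE 0.073, edgeR adjusted p = 0.0074). Knockdown replicate 2 lay just under the lowest control library. ITGB1 fell by 0.14 (log2, SE 0.032, edgeR adjusted p = 0.000601), from 2424.5 to 2546.4 CPM in control to 2174.3 to 2321.4 CPM after knockdown.

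The vitronectin receptor chains ITGB3 and ITGB5 rose although their partner ITGAV fell. ITGB3 had 242.0, 245.1, 245.6 and 237.4 CPM in control libraries and 290.5, 287.0, 284.8 and 286.1 CPM after knockdown, a log2 difference of 0.24 (SE 0.029, edgeR adjusted p = 5.22e-08). ITGB5 had 199.1 to 209.9 CPM in control libraries and 226.3 to 245.9 CPM after knockdown, a log2 difference of 0.22 (SE 0.033, edgeR adjusted p = 1.61e-06). ITGB4 (ENSG00000132470.14, chromosome 17), the long-tailed partner of ITGA6 in hemidesmosomes, had 9.93, 10.1, 9.55 and 10.4 CPM in control libraries and 17.2, 16.3, 16.4 and 15 CPM after knockdown. All 4 knockdown libraries were high, and the chain rose 1.619-fold (log2 0.70, SE 0.067, edgeR adjusted p = 8.72e-10) while ITGA6, its only known partner, fell. Even so, ITGB4 held 0.493% of the summed beta level per length in knockdown libraries.

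**Figure D2:**
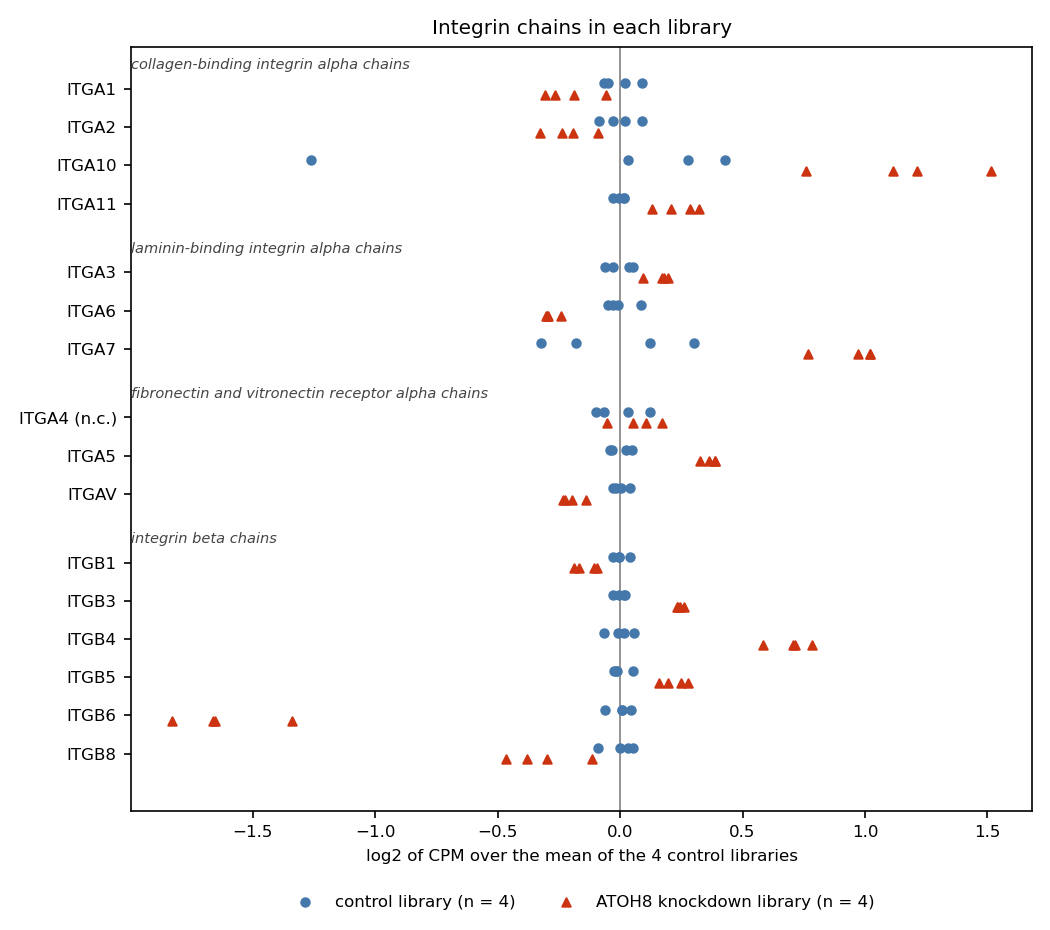
CPM of each integrin chain in each library as log2 over the mean of the 4 control libraries (circles, control; triangles, ATOH8 knockdown; n.c. marks a gene not called). ITGB6 lies far to the left, ITGB4, ITGA7 and ITGA10 lie to the right, and ITGA4 is the chain whose groups mix most.

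Ratios of paired members within a library do not depend on how libraries are scaled, and 9 pairs were compared with a two-sided exact permutation test, for which 4 against 4 libraries allow no p below 0.0286. In 6 of the 9 pairs the groups did not overlap and p was 0.0286, the smallest possible (0.0429 adjusted over the 9 pairs). The share of other gene pairs that separate in this way was not computed, and 45.6% of single genes tested did. In ITGA5/ITGAV, ITGA6/ITGA3, ITGB4/ITGB1 and ITGA11/ITGA2 the members were called in opposite directions. In TLN2/TLN1 and FLNC/FLNA both members were called higher, by unlike amounts. All 6 ratios therefore restate the fold changes of their members and add no independent evidence. Per length, ITGA5 stood at 34.0% of ITGAV in control and 50.3% in knockdown libraries, a log2 difference of 0.56 in which all knockdown libraries (-1.09 to -0.93) exceeded all control libraries (-1.57 to -1.51). ITGA6 stood at 15.7% of ITGA3 in control and 11.5% in knockdown libraries, and ITGA11 at 27.9% and 38.0% of ITGA2. ITGB4 went from 0.36% to 0.641% of ITGB1. The balance of ITGB3 to ITGB5 moved by 0.02 (log2, exact permutation p = 0.5429), less than the spread between libraries of a group. Among the adaptors TLN2 went from 5.86% to 7.43% of TLN1 and FLNC from 14.6% to 18.5% of FLNA, whereas LIMS2 to LIMS1 (log2 -0.01, exact permutation p = 0.9143) and TNS1 to TNS3 (-0.02, exact permutation p = 0.2857) did not move beyond their spread.

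**Figure D3:**
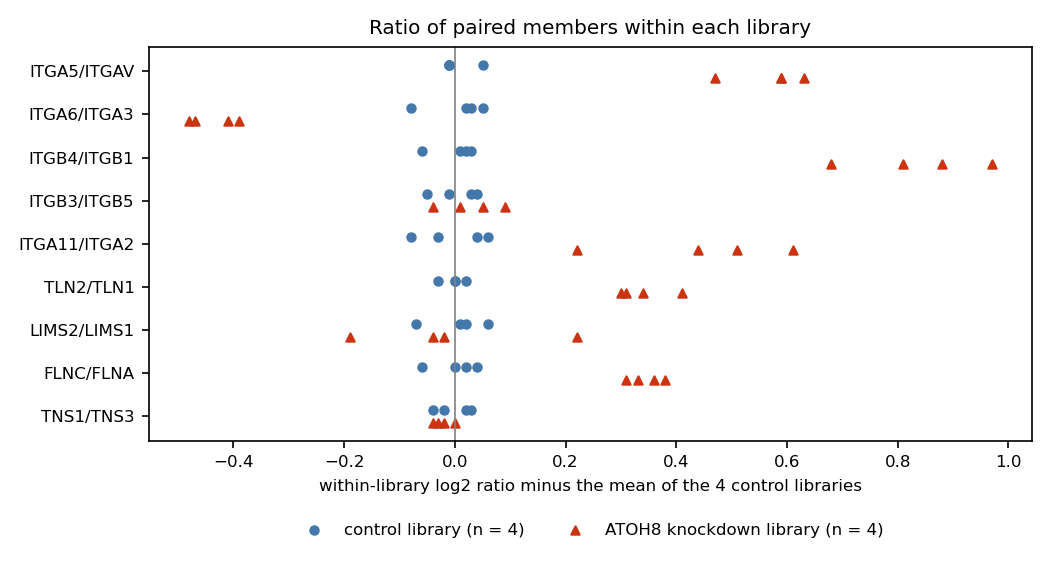
Within-library log2 ratio of 9 pairs of members, per length, minus the mean of the 4 control libraries (circles, control; triangles, ATOH8 knockdown). The groups separate for ITGA5/ITGAV, ITGA6/ITGA3, ITGB4/ITGB1, ITGA11/ITGA2, TLN2/TLN1 and FLNC/FLNA and mix for the other pairs.

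Both talins rose, while FERMT2, the more abundant kindlin gene, did not pass the test. TLN1, the ubiquitous talin, had 887.4, 830.9, 852.1 and 814.7 CPM in control libraries and 1066.7, 985.4, 1049.6 and 977.6 CPM after knockdown (log2 0.27, SE 0.034, edgeR adjusted p = 1.37e-07). Its exons overlap those of CREB3 on the other strand, which had 6.44% of its count and also rose (log2 0.23, edgeR adjusted p = 3.83e-05). TLN2 (ENSG00000171914.16, chromosome 15), the paralog of TLN1, had 84.8, 77.1, 80.3 and 76.9 CPM in control libraries and 125.1, 123.8, 125.3 and 113.4 CPM after knockdown. With a 1.528-fold rise (log2 0.61, SE 0.039, edgeR adjusted p = 1.23e-13) TLN2 changed most among the adaptors. For FERMT2, which encodes kindlin-2, the log2 change was -0.01 (edgeR adjusted p = 0.746). The 95% interval, which reflects only the spread between libraries, ran from -5.58% to 3.81%. FERMT1, which encodes kindlin-1 and is not among the 35, was scarce and rose from 4.28 ± 0.39 to 6.79 ± 0.535 CPM (log2 0.66, SE 0.103), with no overlap of the groups.

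The kinase, PINCH and parvin complex moved little. ILK, the pseudokinase at its centre, had 99.1 to 103.3 CPM in control libraries and 99.4 to 104.5 CPM after knockdown, with a 95% interval of -4.18% to 5.32% for the difference. ILK shares exon sequence with TAF10 on the other strand, which had 37.5% of its count and a log2 difference of 0.12. PARVA, alpha-parvin, had a log2 difference of 0.02 (edgeR adjusted p = 0.717, 95% interval -3.47% to 5.86%). LIMS1, the PINCH protein of most cells, rose by 0.13 (log2, SE 0.031, edgeR adjusted p = 0.000707) from 239.4 to 251.7 CPM in control to 257.5 to 273.5 CPM after knockdown. Its near-identical copies LIMS3 and LIMS4 held 4.81 ± 1.39 and 3.73 ± 1.33 CPM in control libraries and 7.69 ± 1.52 and 5.22 ± 1.66 CPM after knockdown (log2 0.67 and 0.49, edgeR adjusted p = 0.0417 and 0.284), and reads could be split between such copies. LIMS2, the second PINCH gene, was scarce at 6.51 ± 0.343 CPM in control libraries and 7.11 ± 0.675 CPM after knockdown and did not pass the test (edgeR adjusted p = 0.268).

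Of the signalling scaffolds, paxillin showed the largest difference. PXN (ENSG00000089159.16, chromosome 12) had 181.5, 176.7, 169.4 and 170.4 CPM in control libraries and 233.9, 221.9, 228.1 and 232.6 CPM after knockdown, and every knockdown library was above every control library (log2 0.39, SE 0.032, edgeR adjusted p = 2.98e-11). BCAR1, the p130Cas docking protein, rose by 0.13 (log2, SE 0.036, edgeR adjusted p = 0.00414), with control replicate 1 at 125.8 CPM above the lowest knockdown library at 124.3 CPM. PTK2, focal adhesion kinase, had 131.8 to 136.6 CPM in control libraries and 138.6 to 143.1 CPM after knockdown. Those ranges do not overlap, but the difference of 0.07 (log2, SE 0.031) did not pass (edgeR adjusted p = 0.0795), though it did with a stricter filter on low counts (0.0482).

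Among the actin linkers 5 of 6 rose, where 25.2% of all genes tested and 31.4% of those above 100 CPM rose. FLNC (ENSG00000128591.15, chromosome 7), the filamin of muscle and of cells under load, had 291.2, 263.8, 279.6 and 253.6 CPM in control libraries and 433.8, 385.0, 403.9 and 403.5 CPM after knockdown. All knockdown libraries were high, 1.494-fold on average (log2 0.58, SE 0.042, edgeR adjusted p = 1.57e-09). FLNA rose by 0.24 (log2, SE 0.035, edgeR adjusted p = 2.11e-06) from 2066.6 to 2216.1 CPM in control to 2395.4 to 2649.1 CPM after knockdown. ACTN1, the alpha-actinin of stress fibres and adhesions, had 875.7, 823.9, 846.4 and 817.0 CPM in control libraries and 1107.6, 1041.3, 1073.0 and 1053.3 CPM after knockdown (log2 0.35, SE 0.032, edgeR adjusted p = 2.59e-10). VCL, vinculin, which binds talin under tension, rose by 0.19 (log2, SE 0.032, edgeR adjusted p = 1.12e-05). Its neighbour AP3M1, which overlaps it on the other strand with 16.8% of its count, had a log2 difference of -0.18, opposite in sign. The tensins, which bind beta chain tails in fibrillar adhesions, moved least: TNS3 passed narrowly (log2 0.10, SE 0.036, edgeR adjusted p = 0.0243) and TNS1 did not (log2 0.08, SE 0.036, edgeR adjusted p = 0.0777). The TNS3 call was lost without control replicate 3 (0.11), control replicate 4 (0.12) or knockdown replicate 1 (0.0791), and TNS1 was called without control replicate 1 (0.00582), under the replicate block (0.0247) and with the stricter filter (0.0496).

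In the zyxin and VASP group of the set LPP was called higher, and ZYX and VASP were not called. LPP (ENSG00000145012.13, chromosome 3), a LIM protein of focal adhesions in mesenchymal cells, had 242.6, 230.7, 239.6 and 242.0 CPM in control libraries and 361.8, 340.1, 331.0 and 357.6 CPM after knockdown (log2 0.54, SE 0.033, edgeR adjusted p = 3.81e-14). No knockdown library came near the control range. ZYX, zyxin itself, had 208.1 to 236.5 CPM in control libraries and 214.0 to 235.8 CPM after knockdown (log2 0.03, edgeR adjusted p = 0.524, 95% interval -3.34% to 8.1%), so the groups mixed. VASP, which elongates actin filaments, also mixed, at 118.4 ± 2.7 and 121.6 ± 4.3 CPM (SD, n = 4), with a log2 difference of 0.04 (edgeR adjusted p = 0.365). Outside the set, the zyxin relative LIMD1 rose as LPP did, by less (log2 0.23, edgeR adjusted p = 1.47e-05). Another zyxin relative, TRIP6, did not pass (log2 0.08, edgeR adjusted p = 0.103).

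**Figure D4:**
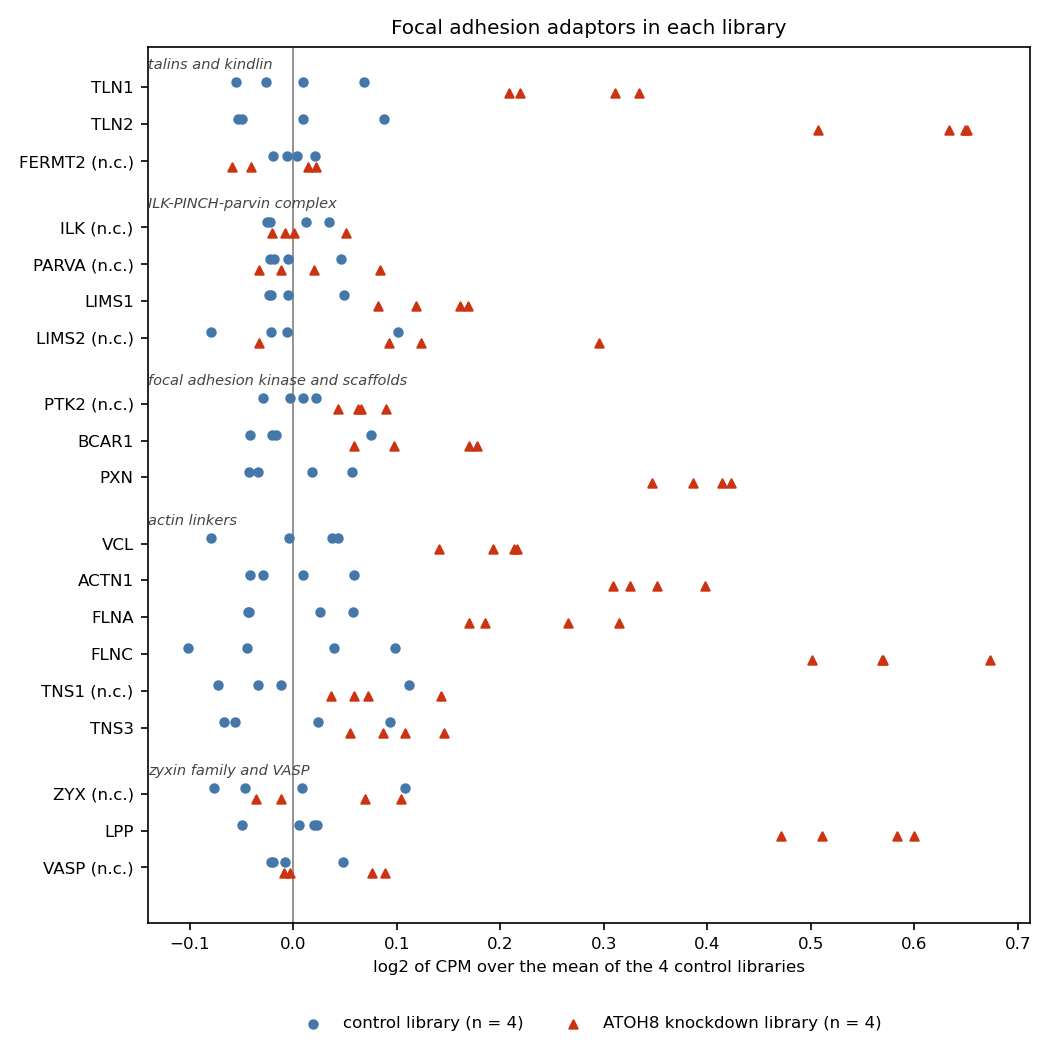
CPM of each focal adhesion adaptor in each library as log2 over the mean of the 4 control libraries (circles, control; triangles, ATOH8 knockdown; n.c. marks a gene not called). TLN2, FLNC, LPP, PXN and ACTN1 lie clearly to the right, and FERMT2, ILK, PARVA, ZYX and VASP straddle the control mean.

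Serum response factor (SRF), which binds the CArG box (CC, then 6 bases of A or T, then GG), and the TEAD factors, which bind CATTCC, are known regulators of adhesion genes, so the promoters of the members were searched for these words and for the E-box CANNTG of helix-loop-helix factors, on both strands. RefSeq promoters (GRCh38.p14, 250 bases before to 50 after a gene's start) were at hand for 29 of the 35 members, some with several starts. A CArG box lay in 4 of the 29 (13.8%) against 1.6% of 27305 genes, and CATTCC in 9 (31.0%) against 16.7%. Members had more starts per gene than other genes, which raises a share per gene, and counted per promoter the CArG box lay in 6.67% of 60 member promoters against 1.29% of 35116 and CATTCC in 18.3% against 14%. Per gene, CANNTG lay in 18 (62.1%) against 73.1%, and its version CAGATG, which is also counted under CANNTG, in 5 (17.2%) against 17.5%. The 4 members with a CArG box were ACTN1, FLNA and LPP, which rose, and ITGB6, which fell most. These windows are shown because they hold the boxes, 5′ to 3′ on the gene's strand, with the CArG box in capitals and, for ACTN1, also the CATTCC word beside it.
ACTN1, chr14:68977705-68977747, minus strand: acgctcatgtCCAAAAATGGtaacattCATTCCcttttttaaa
FLNA, chrX:154374709-154374738, minus strand: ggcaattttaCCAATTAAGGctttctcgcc
LPP, chr3:188212519-188212548, plus strand: gcctgcttctCCATATTTGGaaatgtttac
ITGB6, chr2:160200313-160200342, minus strand: cacctgccttCCTTATAAGGagaacaagga

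The boxes began 171 bases before an annotated start in ACTN1, 94 in FLNA, 183 in LPP and 60 in ITGB6. ACTN1, LPP and, below, PXN have other annotated starts far from the windows shown. Which start these cells use was not measured. Of the 9 members with CATTCC or its reverse complement, 7 rose, while of all 29 members searched 15 rose and 7 fell. Windows of 4 that rose, of different roles, are shown as examples, with the word in capitals.
VCL, chr10:73997935-73997960, plus strand: ccctcccttaGGAATGggggaggggc
PXN, chr12:120250215-120250240, minus strand: tttccaggaaCATTCCtcttccttag
FLNC, chr7:128830293-128830318, plus strand: ggccgggcggCATTCCtgggaggccg
ITGA5, chr12:54419333-54419358, minus strand: cagggacccaGGAATGcccccccgcc

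Not every member with a word rose. ITGB1, which fell, and TNS1, which did not pass the test, hold CATTCC, and ITGB6, which fell, holds a CArG box. Whether the words bear on the direction of change was not tested. The words were chosen after the fold changes were known, and a match is a description of the letters in this window.

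Other adhesion genes were read from 5 lists outside the 35, holding 116 genes of which 104 could be tested. The test called 54 of them higher, 19 lower and 31 neither way. The share called, 70.2%, compares with 51.1% of all genes tested and 69.3% of those above 100 CPM. Their median log2 change was 0.12, and that of all genes tested was 0.00. Of 25 tested focal adhesion adaptors beyond the set, 11 rose and 4 fell, so adaptors that fell were found once the list was widened. KANK2, which binds talin, rose by 0.41 (log2, SE 0.035, edgeR adjusted p = 9.81e-11). ENAH, a relative of VASP, fell from 207.6 ± 4.67 to 129.7 ± 5.47 CPM, a difference of -0.68 (log2, SE 0.034, edgeR adjusted p = 5.56e-16). CSRP1, a LIM protein (log2 -0.31), and RSU1, which binds PINCH (log2 -0.27), also fell.

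Kinases, phosphatases and GTPase regulators of adhesions went both ways, with 12 of 26 higher and 6 lower (69.2% called, against the same 51.1% and 69.3%). SRC (log2 0.29, SE 0.034) and FYN (log2 0.42, SE 0.045), kinases that phosphorylate focal adhesion kinase and p130Cas, rose, while their relative YES1 fell (log2 -0.17, SE 0.033). RAPGEF1, an exchange factor for RAP1 that acts downstream of p130Cas, rose by 0.38, and PTPN12, a phosphatase of p130Cas, and ARHGEF7, an exchange factor at adhesions, fell by 0.34 and 0.16 (log2). Of 18 regulators of integrin activity and membrane partners 7 rose and 4 fell (61.1% called, between those shares). RAPGEF3, the cAMP-gated exchange factor for RAP1, rose from 16 ± 0.938 to 37.3 ± 2.18 CPM, a difference of 1.22 (log2, SE 0.055, edgeR adjusted p = 5.67e-17). ITGBL1, a secreted protein with integrin-like repeats, rose from 0.308 ± 0.127 to 1.74 ± 0.336 CPM, and the proteoglycan SDC1 rose by 0.20 (log2). SDC4, the syndecan of focal adhesions, fell by 0.28, the tetraspanin CD9 by 0.32 and CD47 by 0.19 (log2).

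Among the integrin ligands, several of them very abundant, 21 of 31 rose and 5 fell. Of all genes tested 25.2% rose and 25.9% fell, and of those above 100 CPM 31.4% rose and 37.9% fell. The log2 changes of the ligands ran from -1.43 to 2.65, the widest range of the 5 lists. LAMA4 (log2 2.65, SE 0.142), a laminin chain, COL6A3 (log2 2.08, SE 0.085), a collagen VI chain, and MFGE8 (log2 0.54, SE 0.031), a ligand of ITGAV receptors, were the rising ligands with the smallest adjusted p. VCAM1, the counter-receptor of ITGA4, fell from 60.6 ± 3.15 to 22.5 ± 0.867 CPM, a difference of -1.43 (log2, SE 0.048, edgeR adjusted p = 8.59e-20) while ITGA4 did not pass the test. NPNT, nephronectin, a ligand of ITGA8, fell by 0.92 (log2), with ITGA8 at 0 counts in 7 libraries and 1 in the last. THBS1, thrombospondin-1, fell from 4097.1 ± 178.4 to 3029.1 ± 108.4 CPM. Of the other 10 human integrin chains listed, most of them chains of leukocytes, 4 had enough counts, of which ITGAM (log2 2.56, SE 0.32), ITGB2 (log2 0.36, SE 0.073) and ITGB7 (log2 0.77, SE 0.258) rose. ITGAM counts were 4 to 6 per control library and 17 to 36 after knockdown, and the ITGB7 call (edgeR adjusted p = 0.0129) was lost without control replicate 2 (0.0509), control replicate 4 (0.054) or knockdown replicate 1 (0.0527) and by DESeq2 (0.0669).

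**Figure D5:**
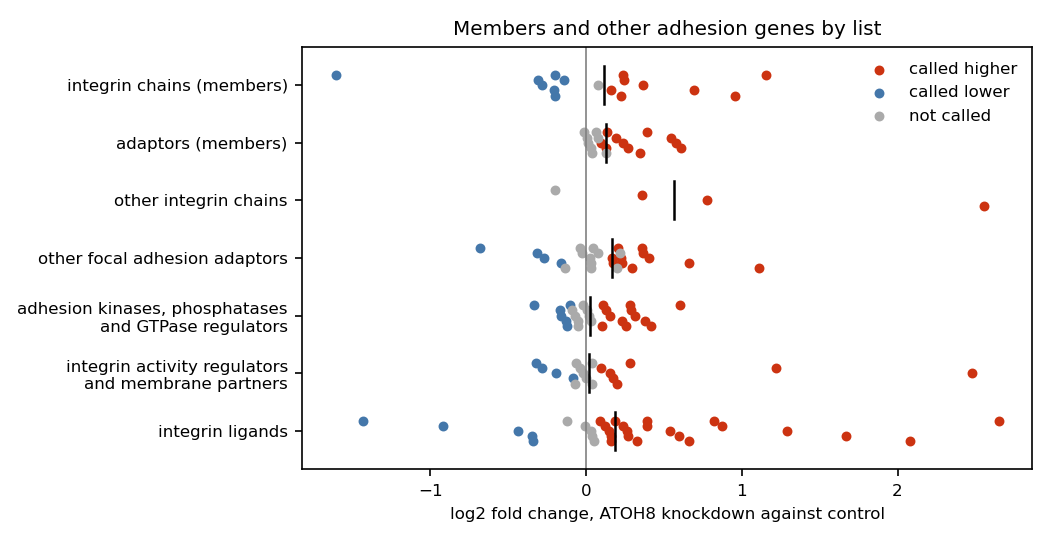
Log2 fold change of each tested gene, ATOH8 knockdown against control, for the integrin chains and adaptors of the set and 5 further lists (red, called higher; blue, called lower; grey, not called; black bar, median of the list). Adaptors of the set show no blue point, and the ligands span the widest range.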

How the data were processed

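The authors deposited 1 table of whole-number read counts per gene with 1 column per library, used here as raw counts. The submitters' processing notes name the genome build hg19 and the programs STAR, featureCounts, FastQC and DESeq2. Their versions, the annotation and the strand setting: not given in the sources used here. Per the labels' protocols, directional libraries were made from polyadenylated RNA whose integrity number exceeded 7.0. Of 60609 rows, 1 with a missing cell and 44 pseudoautosomal copies with 0 counts were dropped. Gene symbols were looked up in a gene-name table or GENCODE release 29 (GRCh38), and the latter also gave exon lengths and overlaps.

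Genes passing edgeR's filterByExpr were scaled by TMM and compared, knockdown against control, with edgeR 4.0.16 (robust quasi-likelihood F test, R 4.3.3), adjusted by Benjamini-Hochberg over all genes tested at 0.05. Fold changes are log2, SE came from the F statistic and 95% intervals from its degrees of freedom. Ratios of paired members had 0.5 counts added. The fit was tested on simulated data.

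Alternatives were DESeq2 1.42.0 (size factors in edgeR, and its Wald test), 2 other filters, the replicate number as a block, each library left out, and another pseudocount for ratios, and another length for levels. All 35 members were named; from each further list up to 3 rising and 3 falling genes with the smallest adjusted p. Some genes that this rule names are not reported here. FERMT1, LIMD1, TRIP6, KIRREL1, MCAM, THY1, CSPG4, RGS5, CD68, ITGA8, AP3M1, BLOC1S1, METTL7B, CREB3, PELO, TAF10, LIMS3, LIMS4, ENSG00000258311 and ENSG00000285155 were added after their values were seen. Members and lists were chosen with earlier results of these data known, and promoter words after the fold changes. The 12 pairs of libraries within groups gave a chi-square per gene of 1.946 to 4.477, so none was a duplicate.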

Additional observations from a re-analysis of the deposited data

Results flagged for a closer look

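In the 4 knockdown libraries TLN2 was at 113.4 CPM in replicate 4 and at 123.8 to 125.3 CPM in the other 3, so that this sample lay far from the others of its group. All 4 remained above the highest control library. Of 70 groups of 4 libraries checked this way (35 members in 2 groups), 1 met the criterion, and chance gives about 1 in 20.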

How the results depend on the processing

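Of the 26 members called, 24 kept direction and call under all 13 alternatives, the exceptions being TNS3 and ITGA10. Members called higher numbered 18 to 20 and members called lower 7 under every alternative, and 18 and 7 by DESeq2's Wald test. With DESeq2 size factors or no filter on low counts no member changed its call, although without a filter 26.4% of genes tested were called. The sign of the change near 0 turned for ILK without control replicate 1 (-0.003), control replicate 2 (-0.002) or knockdown replicate 3 (-0.009) and for PARVA without knockdown replicate 3 (-0.009), none of them called. Over the fits that leave out 1 library the ILK change ran from -0.009 to 0.017 and the PARVA change from -0.009 to 0.031. With at least 1 CPM in 4 libraries required, ITGA10, ITGAM and ITGB7 were not tested. With the longest transcript as length, the share of ITGA3 was 65.9% in control and 69.3% in knockdown libraries and that of ITGB1 83.7% and 80.7%, as the construction of the measure gives. Deviations of same-numbered libraries correlated at 0.001 to 0.057 and those of differently numbered libraries at -0.082 to 0.033. Any pairing by number was therefore weak, and these values do not exclude it. With the replicate block 20 members rose and 7 fell. Differences in the 9 ratios kept their side of the threshold under a pseudocount of 2. Depth limits ITGA10 and ITGA7 most, with 3 to 67 counts per library.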
